A study of Homo sapiens with 9 samples.

Results

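The genes described here make cardiolipin or move its lipid precursors, and they were taken by name: CDS1, CDS2, TAMM41, PGS1, PTPMT1, CRLS1, LCLAT1, PRELID1 and TRIAP1. All 9 had 1 row each among the 21448 rows of the array table, of which 17709 carry 1 gene symbol, and all 9 lay above the lower quartile of the row means (4.21 on the log2 signal scale). Expression was measured in AsPC-1, an established cell line of human pancreatic adenocarcinoma. The control cells carried the blank plasmid pBAsi-hU6 NEO. The other groups carried the same plasmid with a short hairpin RNA against SLP-2, shRNA-1 in the sh1 line and shRNA-2 in the sh2 line. All groups went through Geneticin selection for 3 weeks, and each was grown from 1 colony, so a group is 1 clone. Each group had 3 arrays, and nothing in the labels says that they came from separate cultures. A p-value here thus speaks for array-to-array spread inside each clone, possibly only technical.

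Cardiolipin is the signature phospholipid of the mitochondrial inner membrane. Phosphatidic acid is carried across the intermembrane space by PRELID1 bound to TRIAP1. It is then activated to CDP-diacylglycerol by TAMM41, joined to glycerol phosphate by PGS1, dephosphorylated by PTPMT1 and condensed with a further CDP-diacylglycerol by CRLS1. Acyl chains are exchanged afterwards, by tafazzin in mitochondria and by LCLAT1 at membranes of the endoplasmic reticulum. CDS1 and CDS2 make CDP-diacylglycerol in the endoplasmic reticulum, where it feeds the synthesis of phosphatidylinositol. SLP-2, the product of STOML2, is an inner membrane protein known to bind cardiolipin and prohibitins.

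STOML2 was low in both hairpin lines. Its log2 signals were 13.70, 13.66 and 13.65 in the control, 8.36, 8.42 and 8.18 in sh1, and 7.85, 7.99 and 7.35 in sh2. Differences on the log2 scale from the control were -5.35 ± 0.16 (SE) in sh1 and -5.94 ± 0.16 in sh2 (limma, adjusted p = 2.31e-09 and 1.63e-09). Array medians lay between 6.57 and 6.65, and arrays of 1 group correlated at 0.994 to 0.996 across rows. Epithelial keratins were well above the median row, with KRT8 at 16.2 and KRT18 at 13.4 in the control, whereas CEACAM5 (4.88) and CEACAM6 (5.61) lay between the lower quartile and the median (6.61). Of 10 markers of ductal epithelium, 4 rose and 1 fell in sh1, where 9.76% of all rows were called higher and 9% lower. In sh2, 3 rose and 2 fell, where the shares were 8.33% and 7.98%. The mean log2 level of this list was 10.3 to 10.4 on the control arrays, 10.99 to 11.10 in sh1 and 10.58 to 10.65 in sh2. Single genes weighed heavily on that mean: EPCAM rose by 4.94 in sh1 and CDH1 by 2.03, while KRT19 fell by 1.69, and the median difference of the list was 0.155 (limma, adjusted p = 1.77e-09, 4.02e-06 and 1.74e-05). In sh2 CDH1 fell by 0.52 (limma, adjusted p = 0.0419), a call that ended without control array 1, 2 or 3, sh1 array 1 or sh2 array 1 or 3 (-0.58 to -0.45, adjusted p = 0.0521 to 0.137), with the replicate block (0.0525) and relative to neighbours (0.0976). Of 8 measured mesenchymal markers, 4 fell in sh1 and 3 in sh2, again beside 9% and 7.98% of all rows, and the list's mean level was 8.12 to 8.26 in the control, 6.85 to 6.94 in sh1 and 6.75 to 6.80 in sh2. Single genes weighed on this mean as well: CDH2 differed by -5.11 in sh1 and -6.08 in sh2, and COL1A1 by -3.19 and -3.48. The median difference of the list was -0.53 in sh1 and -0.39 in sh2, and FN1, PDGFRB, DCN and LUM were called in neither. Of 4 measured leukocyte markers, 2 fell in sh1 and 1 in sh2, beside the same 9% and 7.98% of all rows, at mean levels of 6.73 to 7.11, 6.32 to 6.58 and 6.52 to 6.78. The marker called in both lines was PTPRC, whose row mean lay under the lower quartile. CD68 was the other sh1 call (-0.48, limma, adjusted p = 0.0339), and its sh2 arrays all lay above the control (0.41, adjusted p = 0.0733). The neural cadherin CDH2 fell from 11.92 in the control to 6.81 and 5.84 (limma, adjusted p = 4.37e-09 and 1.63e-09). VIM fell by 0.76 in sh1 (limma, adjusted p = 0.000895), though relative to its neighbours it was at 0.36 (adjusted p = 0.0757), and it differed by -0.05 in sh2 (adjusted p = 0.858). No acinar, islet or endothelial marker passed in limma (0 of 9, and 0 at an unadjusted p under 0.05), and 6 of those 9 lay under the lower quartile. The part of these marker shifts in the results below was not tested. In RNA from whole cultures, fewer cells of a type and less RNA per cell cannot be told apart.

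CDS1 was the member with the widest difference between groups, and its paralog CDS2 did not follow. In the sh1 line CDS1 was at 41.5% of the control signal, and in the sh2 line at 16.5%. The enzymes that act inside mitochondria from TAMM41 to CRLS1 passed the test in none of the comparisons. LCLAT1 and PRELID1 were lower in sh2. In total, 1 of the 9 genes was called in sh1 (CDS1, lower), where 18.8% of all rows were called in either direction, 9.76% as higher and 9% as lower. In sh2, 3 of the 9 were called, all lower, where 16.3% of all rows were called, 8.33% as higher and 7.98% as lower. Between sh2 and sh1, 1 of the 9 was called (CDS1, lower in sh2), against 11.3% of all rows, 5.73% as higher and 5.57% as lower. Without the rows under the lower quartile these 3 counts were the same, beside 26.9%, 23.8% and 16.6% of all rows left. The median difference of the 9 genes was -0.05 in sh1, -0.08 in sh2 and -0.14 between sh2 and sh1, and that of all rows was 0.02, 0.02 and -0.01. The counts in sh1 and between the lines are thus near or below what the whole table shows, and those in sh2 rest on 3 genes. The comparisons of sh1 and sh2 share their control arrays, so they are given side by side and not as separate evidence.

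**Figure D1:**
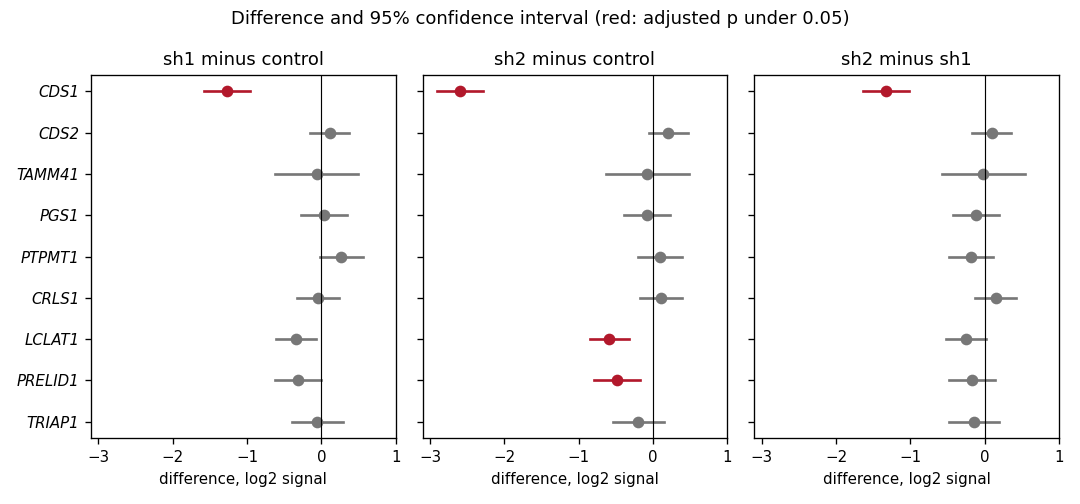
Differences of log2 signal for the 9 genes in the 3 comparisons, with 95% confidence intervals from the limma model over 9 arrays; red marks an adjusted p under 0.05. CDS1 lies far to the left in every panel (-1.27, -2.60 and -1.33), LCLAT1 and PRELID1 are marked in sh2, and the other intervals include 0 or did not pass.

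CDS1 and CDS2 encode the CDP-diacylglycerol synthases of the endoplasmic reticulum. CDS1 had log2 signals of 9.77, 9.36 and 9.58 in the control, 8.26, 8.40 and 8.24 in sh1, and 6.85, 6.97 and 7.10 in sh2. The groups formed separate steps with no overlap, with the control highest and sh2 lowest. The difference on the log2 scale was -1.27 ± 0.14 (SE) in sh1 and -2.60 ± 0.14 in sh2 (limma, adjusted p = 6.17e-05 and 2.22e-07). The step from sh1 to sh2 was itself a call, at -1.33 ± 0.14 (adjusted p = 6.92e-05). The CDS1 calls held under all 17 alternatives of scaling, filter, model, row choice and left-out arrays. Row choice, 1 of the 17, could not alter them, since CDS1 has 1 row. The limma adjusted p ran from 1.15e-05 to 0.000534 in sh1 and from 2.46e-09 to 7.55e-06 in sh2. Between the lines the range was 1.16e-05 to 0.000546.

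CDS2 had signals of 10.50, 10.43 and 10.59 in the control, 10.58, 10.66 and 10.61 in sh1, and 10.68, 10.84 and 10.62 in sh2. The control and sh1 arrays overlapped, while the sh2 arrays all lay slightly above the control. Its difference was 0.11 in sh1, with a 95% interval of -0.15 to 0.37 on the log2 scale, and 0.21 in sh2, with an interval of -0.05 to 0.47 (limma, adjusted p = 0.606 and 0.300). The log2 ratio of CDS1 to CDS2 within each array was -1.38 against the control in sh1 and -2.80 in sh2. The SD of that ratio was 0.18 in the control, 0.06 in sh1 and 0.19 in sh2 (n = 3 each). All arrays of a line lay on 1 side of the control, for which a two-sided exact permutation test gives 0.1, the smallest p that 3 against 3 allows. The ratio shows that the paralogs changed unequally.

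**Figure D2:**
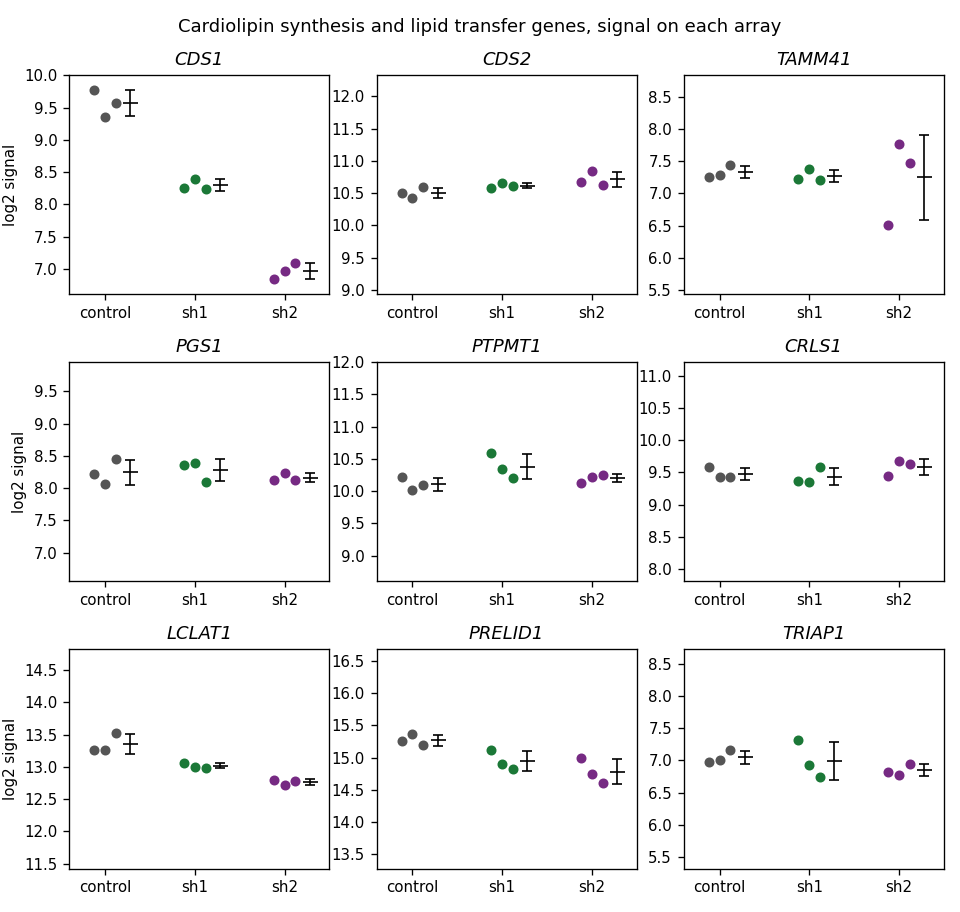
Log2 signal of each of the 9 genes on the 9 arrays, as points by group, with the mean and SD of 3 arrays beside them; every panel spans the same number of log2 units around its own middle. CDS1 steps down from 9.57 in the control to 8.30 in sh1 and 6.97 in sh2, the CDS2 points stay between 10.43 and 10.84, and the sh2 points of TAMM41 are spread from 6.51 to 7.77.

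The upstream sequences of both synthase genes are printed because 1 paralog fell in both lines and the other did not. They are the 250 bases before the annotated start, from RefSeq on GRCh38.p14, on the plus strand, 5′ to 3′. The window is chr4:84582877-84583126 for CDS1 and chr20:5126758-5127007 for CDS2. Capitals mark every match, on either strand, to 5 motifs that were chosen after the values were seen: an E-box (CAGGTG), a further E-box (CACGTG), the GC box (GGGCGG), the CCAAT box and the TATA box (TATAAA).
CDS1: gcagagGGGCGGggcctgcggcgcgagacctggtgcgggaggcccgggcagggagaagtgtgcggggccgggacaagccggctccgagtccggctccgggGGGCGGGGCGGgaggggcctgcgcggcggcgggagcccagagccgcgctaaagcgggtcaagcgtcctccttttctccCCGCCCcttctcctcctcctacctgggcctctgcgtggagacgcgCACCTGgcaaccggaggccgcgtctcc
CDS2: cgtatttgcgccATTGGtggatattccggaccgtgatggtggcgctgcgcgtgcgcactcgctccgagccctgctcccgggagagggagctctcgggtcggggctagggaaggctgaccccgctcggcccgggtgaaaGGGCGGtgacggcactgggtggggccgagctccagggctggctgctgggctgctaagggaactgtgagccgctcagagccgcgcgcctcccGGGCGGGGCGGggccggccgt
Both windows are rich in G and C (76% in CDS1 and 72.4% in CDS2), with 29 and 28 CpG dinucleotides against a median of 11 over 35116 promoters. The CDS1 window holds 4 GC boxes, of which 2 share a base, and the CDS2 window holds 3, of which 2 share a base. A GC box occurs in 42.6% of all promoter windows of this length. CDS1 has 1 CAGGTG on the minus strand, 27 to 22 bases before the start, a form of E-box that Snail and ZEB factors are known to bind, and 17.5% of all windows hold one. Among the other members PGS1 also holds 1 CAGGTG on the minus strand, 212 to 207 bases before its start. PGS1 was not called in any comparison before neighbour correction. CDS2 has 1 CCAAT box on the minus strand, found in 32% of all windows, and neither E-box. These matches are a description of letters, and no binding was measured.

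The enzymes of the mitochondrial route from phosphatidic acid to cardiolipin showed no called difference. TAMM41, the CDP-diacylglycerol synthase of mitochondria, had signals of 7.26, 7.29 and 7.44 in the control, 7.22, 7.38 and 7.21 in sh1, and 6.51, 7.77 and 7.47 in sh2. The sh2 arrays lay both below and above all others, with an SD of 0.66 against 0.10 in each other group. Its difference was -0.06 in sh1 (95% interval -0.62 to 0.50) and -0.08 in sh2 (-0.64 to 0.48), the widest intervals of the 9 genes. Without sh2 array 1 the sh2 difference was 0.29 (limma, adjusted p = 0.244), so its sign rested on that array.

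PGS1, which makes phosphatidylglycerol phosphate, had signals of 8.22, 8.06 and 8.45 in the control, 8.36, 8.39 and 8.09 in sh1, and 8.12, 8.24 and 8.12 in sh2, and all groups overlapped. The difference was 0.04 in sh1 (95% interval -0.27 to 0.35) and -0.08 in sh2 (-0.39 to 0.23). PTPMT1, the phosphatase of the next step, had signals of 10.21, 10.01 and 10.10 in the control, 10.59, 10.34 and 10.20 in sh1, and 10.13, 10.21 and 10.25 in sh2. Its sh1 arrays reached higher but 1 of them lay inside the control range. The difference was 0.27 in sh1 (-0.02 to 0.56, limma, adjusted p = 0.207) and 0.09 in sh2 (-0.20 to 0.38). CRLS1, the cardiolipin synthase, had signals of 9.58, 9.42 and 9.43 in the control, 9.37, 9.35 and 9.58 in sh1, and 9.44, 9.67 and 9.63 in sh2, again with overlap between all groups. Its difference was -0.04 in sh1 (-0.32 to 0.24) and 0.10 in sh2 (-0.18 to 0.38). For PGS1, PTPMT1 and CRLS1 the intervals in both lines thus end at most 0.56 away from 0 on the log2 scale. That is narrower than the fall of CDS1, and it leaves room for smaller changes.

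LCLAT1, an acyltransferase that exchanges the chains of cardiolipin and other phospholipids, was lower in sh2. Its signals were 13.26, 13.27 and 13.53 in the control, 13.06, 13.00 and 12.99 in sh1, and 12.80, 12.72 and 12.78 in sh2. The groups stood in the order control, sh1, sh2 with no overlap. The fall in sh2 was -0.59 ± 0.12 (SE), to 66.6% of the control (limma, adjusted p = 0.00638), and it held under all 17 alternatives (adjusted p = 0.000223 to 0.0299). Row choice, 1 of the 17, could not alter the values, since LCLAT1 has 1 row. In sh1 the difference was -0.34 ± 0.12 (adjusted p = 0.0807). It passed with quantile normalization (-0.38, adjusted p = 0.0452) and with an intensity trend in the prior (adjusted p = 0.0158), and in none of the other 15 alternatives, which reached 0.252. The step from sh1 to sh2 was -0.25 (adjusted p = 0.248), so neighbours in this order were not told apart by the test.

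PRELID1, the carrier of phosphatidic acid, was lower in sh2 with less margin. Its signals were 15.25, 15.36 and 15.19 in the control, 15.12, 14.90 and 14.82 in sh1, and 14.99, 14.75 and 14.60 in sh2. The control arrays all lay above both lines, which overlapped each other. The difference was -0.49 ± 0.14 (SE) in sh2, to 71.4% of the control (limma, adjusted p = 0.0361), and -0.32 ± 0.14 in sh1 (adjusted p = 0.153). The sh2 call did not survive leaving out any 1 of control arrays 1, 2 and 3 or sh2 arrays 2 and 3 (-0.53 to -0.40, adjusted p = 0.0634 to 0.128). The sh1 difference passed with an intensity trend in the prior (adjusted p = 0.0288) and in no other alternative.

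TRIAP1, the small partner of PRELID1, had signals of 6.97, 7.0 and 7.17 in the control, 7.31, 6.93 and 6.74 in sh1, and 6.82, 6.78 and 6.95 in sh2. The sh1 arrays lay on both sides of the control, and the sh2 arrays lay just below it. The difference was -0.05 in sh1 (95% interval -0.39 to 0.29) and -0.20 in sh2 (-0.54 to 0.14), and neither passed (limma, adjusted p = 0.870 and 0.469). Counted by arrays alone, 4 of the 9 genes lay wholly below the control in sh2 (CDS1, LCLAT1, PRELID1 and TRIAP1), where 15.4% of all rows did, and 1 lay wholly above (CDS2), where 17.1% did. In sh1, 3 of the 9 lay wholly below (CDS1, LCLAT1 and PRELID1), where 16.4% of all rows did, and 0 lay wholly above, where 18.2% did. Between sh2 and sh1, 2 of the 9 lay wholly lower in sh2 (CDS1 and LCLAT1), where 14% of all rows did, and 0 wholly higher, where 13.1% did.

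The upstream windows of LCLAT1 and PRELID1 are shown beside those of the synthases because these genes were the other calls in sh2. Build, strand, length and capitals are as above, at chr2:30446996-30447245 for LCLAT1 and chr5:177303549-177303798 for PRELID1.
LCLAT1: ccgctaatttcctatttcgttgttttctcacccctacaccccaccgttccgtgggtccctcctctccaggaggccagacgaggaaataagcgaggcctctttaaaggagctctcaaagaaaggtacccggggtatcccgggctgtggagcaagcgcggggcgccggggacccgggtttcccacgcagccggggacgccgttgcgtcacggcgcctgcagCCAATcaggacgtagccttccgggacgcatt
PRELID1: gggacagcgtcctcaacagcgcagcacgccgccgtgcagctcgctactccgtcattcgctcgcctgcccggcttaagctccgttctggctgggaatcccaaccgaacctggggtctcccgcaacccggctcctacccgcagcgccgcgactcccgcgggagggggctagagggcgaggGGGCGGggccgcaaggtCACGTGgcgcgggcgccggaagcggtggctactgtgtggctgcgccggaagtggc
LCLAT1 holds 1 CCAAT box, 31 to 27 bases before the start, and none of the other 4 motifs. PRELID1 holds 1 CACGTG, 55 to 50 bases before the start, a motif present in 6.3% of all windows, and 1 GC box just upstream of it, and no CCAAT. PTPMT1, which was not called, holds 1 CACGTG as well, 242 to 237 bases before its start. The windows of the 3 genes that fell in sh2 thus share none of the 5 motifs: CDS1 and PRELID1 both hold the GC box, which CDS2 holds as well, and LCLAT1 lacks it.

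Each member was set beside the 40 nearest expressed genes on its chromosome, 20 on each side in the order of the RefSeq annotation, to show where a member moved with its surroundings. CDS1 on chromosome 4 fell among neighbours of which 17 of 40 were lower in sh1 and 15 in sh2. PTPN13 among them lay lower than CDS1 itself, at -2.72 in sh1 and -4.34 in sh2. The median difference of the 40 was 0.12 and 0.14, and with the neighbours' shift taken off CDS1 was at -1.32 and -2.73 (limma, adjusted p = 2.12e-05 and 3.38e-08). LCLAT1 on chromosome 2 likewise stood among neighbours at -0.07 and 0.09, and its corrected value in sh2 was -0.66 (adjusted p = 0.00217). PRELID1 on chromosome 5 did not stand apart. Its neighbours had a median of -0.33 in sh1 and -0.56 in sh2, where 37 of the 40 were lower, and its corrected differences were 0.02 and 0.09 (adjusted p = 0.953 and 0.730).

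PGS1 and TRIAP1 showed the reverse picture. The neighbours of PGS1 on chromosome 17 had a median of -0.44 in sh1 and -0.46 in sh2, and PGS1 relative to them passed as higher in sh1, by 0.46 (limma, adjusted p = 0.0322). In sh2 it was at 0.39 (adjusted p = 0.0719). The neighbours of TRIAP1 on chromosome 12 were higher, at 0.44 and 0.33, and TRIAP1 relative to them was at -0.47 and -0.49 (adjusted p = 0.0767 and 0.0742). CDS2 and CRLS1, both on chromosome 20, TAMM41 on chromosome 3 and PTPMT1 on chromosome 11 had neighbour medians between -0.07 and 0.17. With this correction 20.3% of 17684 rows passed in the sh1 comparison, 17% in that of sh2 and 12.6% between the lines.

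**Figure D3:**
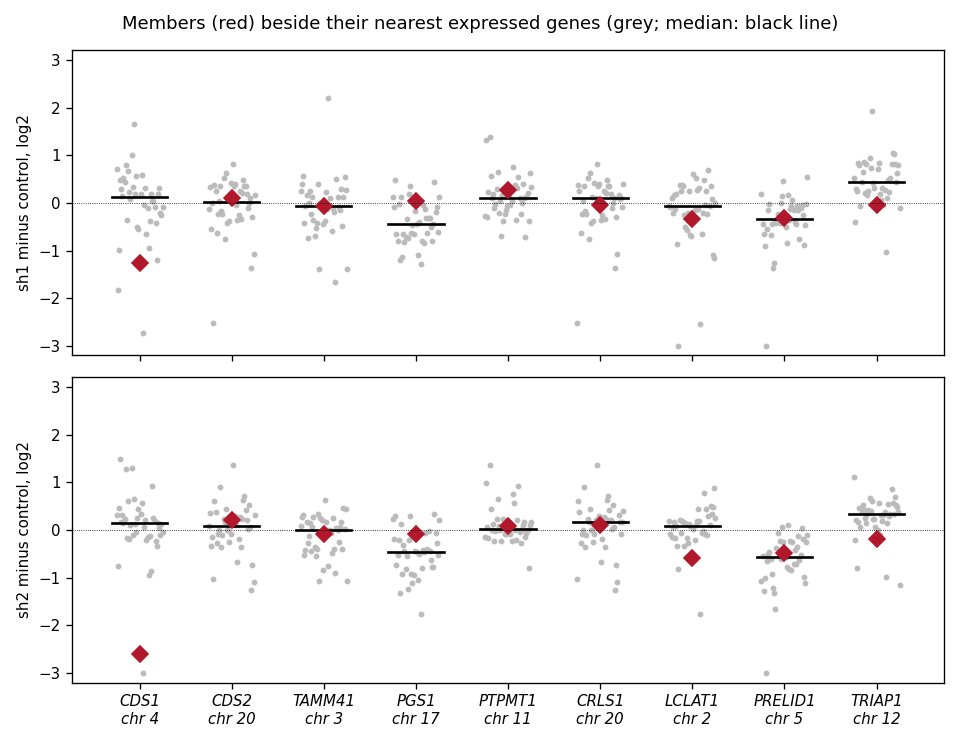
Log2 difference from the control in sh1 (top) and sh2 (bottom) for each of the 9 genes (red diamonds) and its 40 nearest expressed genes in chromosome order (grey points, left to right), with their median as a black line; 4 points beyond 3 log2 units are drawn at that limit. CDS1 lies far below its neighbours' median in sh2 (-2.60 against 0.14), and PRELID1 lies close to its own (-0.49 against -0.56).

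The genes with the pattern nearest to that of CDS1 were MYL9 and CRABP2. Likeness was the root mean square difference over the 9 arrays of log2 values, each taken from the gene's own control mean. It was 0.24 for MYL9, a regulatory light chain of myosin, which differed by -0.98 in sh1 and -2.53 in sh2. It was 0.26 for CRABP2, a carrier of retinoic acid, which differed by -1.29 and -2.29. By the same measure, 1 gene lay within 0.25 of CDS1, whereas 1152 lay within 0.25 of LCLAT1 and 1398 of PRELID1. These counts follow the size of each change, since the members' own distance from their control mean was 1.67 for CDS1, 0.40 for LCLAT1 and 0.36 for PRELID1 by the same measure. The nearest to LCLAT1 were PSMD11 and PPP2CA (0.07 each), and the nearest to PRELID1 were PITX3 (0.05) and TRIR (0.08).

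The rest of the pathway was read in 5 lists of related lipid genes, of which 49 of 54 members were measured. In sh1, 9 of the 49 rose and 5 fell, which is 28.6% against 18.8% of all rows. In sh2, 6 rose and 5 fell, which is 22.4% against 16.3%. Between sh2 and sh1, 4 were higher and 2 lower, or 12.2%, against 11.3%. Without the rows under the lower quartile, 29.2% of the 48 genes left were called in sh1, against 26.9% of all rows left. In sh2 the shares were 29.2% against 23.8%, and between the lines 14.6% against 16.6%. The median difference of the 49 genes was 0.06 in sh1 and 0.02 in sh2. Without control array 2, 9 were called in sh1 (18.4% against 14.6% of all rows) and 6 in sh2 (12.2% against 12.6%). With the neighbours' shift taken off, 10 were called in sh1 (20.4% against 20.3%) and 7 in sh2 (14.3% against 17%), so in that setting the excess over all rows was no longer there. Other settings kept or widened it. With an intensity trend in the prior, 16 were called in each line (32.7%, against 22% of all rows in sh1 and 19.3% in sh2). With only the groups compared, 16 were called in sh1 (32.7% against 18.2%) and 10 in sh2 (20.4% against 15.1%).

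Cardiolipin remodelling and turnover was read from 8 measured genes. The sh1 line had 2 higher and 1 lower call (median 0.13), and the sh2 line 2 higher calls (median 0.09). That is 37.5% of the list in sh1 and 25% in sh2, beside 18.8% and 16.3% of all rows. Each of the 5 lists is short, so such a share rests on few genes. TAFAZZIN, the transacylase that matures cardiolipin, had signals of 10.27 to 10.53 in the control, 10.74 to 11.01 in sh1 and 10.70 to 10.98 in sh2. It rose by 0.50 in sh1 and 0.47 in sh2 (limma, adjusted p = 0.0243 and 0.0365). Its sh1 call was lost without control array 1 or 2 or sh1 array 1 or 2 (0.43 to 0.49, adjusted p = 0.0702 to 0.0914). The sh2 call was lost without control array 1 or 2, sh1 array 1 or sh2 array 1 or 2 (0.40 to 0.47, adjusted p = 0.0520 to 0.125), with the replicate block (0.0558) and with only the groups compared (0.0511).

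NME4, a mitochondrial nucleoside diphosphate kinase that can move cardiolipin to the outer membrane, rose by 0.45 and 0.48 (limma, adjusted p = 0.0244 and 0.0208). Its neighbours on chromosome 16 had a median of 0.47 in sh1 and 0.26 in sh2, and relative to them it was at -0.0041 and 0.19 (adjusted p = 0.987 and 0.341). Its sh1 call was lost without control array 2 or 3 or sh1 array 1 or 2 (adjusted p = 0.0501 to 0.0880), and its sh2 call without control array 2 or 3 or sh2 array 1 or 2 (0.0587 to 0.0713). PNPLA8, a calcium-independent phospholipase that cuts cardiolipin, fell in sh1 from 10.36 to 10.47 in the control to 9.04 to 9.72. The groups did not overlap, and the difference was -1.02 ± 0.17 (SE, limma, adjusted p = 0.00142). In sh2 it differed by -0.03 (adjusted p = 0.948), and the lines differed from each other by 0.99 (adjusted p = 0.00278).

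Lipid transfer between membranes was read from 8 measured genes. In sh1, 2 of them rose (median 0.22). In sh2, 2 rose and 1 fell (median 0.04). The shares called were 25% in sh1 and 37.5% in sh2, beside 18.8% and 16.3% of all rows. VPS13D, a bridge-like lipid carrier, had signals of 7.46 to 7.80 in the control, 8.02 to 8.33 in sh1 and 8.53 to 8.66 in sh2. It rose by 0.49 and 0.95 (limma, adjusted p = 0.0281 and 0.000614). In sh1 the call was lost without control array 2 or 3 or sh1 array 2 or 3 (0.39 to 0.52, adjusted p = 0.0562 to 0.108), and relative to neighbours it was at 0.13 (adjusted p = 0.586). VPS13C, of the same family, rose by 0.88 in sh1 (adjusted p = 0.00557) among chromosome 15 neighbours at 0.70, relative to which it was at 0.22 (adjusted p = 0.433). In sh2 it differed by -0.02.

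PRELID2, a relative of PRELID1, is on chromosome 5 as well. It fell by 0.62 in sh2 (limma, adjusted p = 0.0138), among neighbours at -0.61, and relative to them it was at -0.05 (adjusted p = 0.850). Without control array 2 the fall was -0.59 (adjusted p = 0.0507). ESYT1, a tether between the endoplasmic reticulum and the plasma membrane, rose by 0.56 in sh2 (adjusted p = 0.0184), among neighbours at 0.34, and relative to them it was at 0.21 (adjusted p = 0.329). That call was lost without control array 2 or 3 or sh2 array 1 or 2 (0.47 to 0.55, adjusted p = 0.0578 to 0.0703). In sh1 ESYT1 differed by 0.40 (adjusted p = 0.0734), which passed in 3 of the alternatives, 1 of them without sh2 array 3 (adjusted p = 0.0156 to 0.0461).

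Phosphatidic acid is the starting point of the whole route. Its supply was read from 17 measured genes, of which 2 rose and 3 fell in sh1 (median 0.06). In sh2, 1 rose and 2 fell (median 0.11). The shares called were 29.4% in sh1 and 17.6% in sh2, beside 18.8% and 16.3% of all rows. Of the enzymes that acylate lysophosphatidic acid, AGPAT1 and AGPAT4 fell in both lines, while AGPAT2 rose in sh1. AGPAT2, named after its values were seen, differed by 0.66 in sh1 and 0.30 in sh2 (limma, adjusted p = 0.0073 and 0.202), and by 0.62 relative to neighbours in sh1 (adjusted p = 0.00594). AGPAT1 had signals of 12.37 to 12.46 in the control, 11.01 to 11.48 in sh1 and 11.18 to 11.63 in sh2, a difference of -1.21 and -0.93 (limma, adjusted p = 0.000311 and 0.00241). Its chromosome 6 neighbours were at -0.58 and -0.59, and relative to them AGPAT1 was at -0.66 (adjusted p = 0.0094) in the sh1 line. In sh2 it was at -0.32 (adjusted p = 0.178). AGPAT4 had signals of 8.36 to 8.54 in the control, 6.85 to 7.34 in sh1 and 7.62 to 8.19 in sh2, a difference of -1.39 and -0.56 (adjusted p = 0.000157 and 0.0462). The sh2 call was lost without control array 1, 2 or 3, sh1 array 1 or sh2 array 1 or 3 (-0.61 to -0.42, adjusted p = 0.0637 to 0.164) and relative to neighbours (-0.44, adjusted p = 0.0961).

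AGK, the acylglycerol kinase of mitochondria, rose in both lines and was singled out after its values were seen. Its signals were 9.20, 9.24 and 9.37 in the control, 10.07, 10.05 and 10.09 in sh1, and 10.17, 10.15 and 10.12 in sh2. Both lines lay above the control with a narrow spread. The rise was 0.80 ± 0.11 (SE) in sh1 and 0.88 ± 0.11 in sh2 (limma, adjusted p = 0.000414 and 0.000257), and relative to its chromosome 7 neighbours it was 0.48 and 0.63 (adjusted p = 0.0142 and 0.00321). GPAT3, an acyltransferase of the endoplasmic reticulum, fell by 0.55 in sh1 (adjusted p = 0.0320). Its sh2 difference was 0.45 (adjusted p = 0.0820). The sh1 call was lost without control array 2 or 3 or sh1 array 2 or 3 (-0.59 to -0.43, adjusted p = 0.0553 to 0.113). DGKA, a diacylglycerol kinase, lay near the background, with group means of 4.60 in the control, 4.07 in sh1 and 4.98 in sh2. It passed between the lines (0.90, adjusted p = 0.0154), and not without sh1 array 1 or sh2 array 1 (0.84 and 0.75, adjusted p = 0.0590 and 0.0588). In sh1 it differed by -0.53 (adjusted p = 0.108), which passed without control array 3 (-0.77, adjusted p = 0.0166) and relative to neighbours (-0.68, adjusted p = 0.0215).

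Enzymes that draw phosphatidic acid or CDP-diacylglycerol away from cardiolipin were 3 measured genes, of which 1 rose in each line and 0 fell (median -0.01 and -0.03). A share of 33.3% in each line thus rests on 1 gene, beside 18.8% of all rows in sh1 and 16.3% in sh2. LPIN2, a phosphatidate phosphatase, rose by 0.57 in sh1 and 0.55 in sh2 (limma, adjusted p = 0.0101 and 0.0139). It was at 0.33 and 0.35 relative to neighbours (adjusted p = 0.123 and 0.110), and without control array 1 the sh2 rise was 0.50 (adjusted p = 0.0615). CDIPT, the phosphatidylinositol synthase that uses the CDP-diacylglycerol made by CDS1 and CDS2, differed by -0.01 and -0.03 (adjusted p = 0.968 and 0.938), and it is named after its values were seen.

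Of 13 measured genes that make phosphatidylethanolamine, phosphatidylserine and phosphatidylcholine, 2 rose and 1 fell in sh1 (median 0.03). In sh2, 2 fell (median -0.02). The shares called were 23.1% in sh1 and 15.4% in sh2, beside 18.8% and 16.3% of all rows. ETNK2, an ethanolamine kinase, had signals of 7.38 to 7.76 in the control, 6.15 to 6.51 in sh1 and 6.02 to 6.61 in sh2. It fell by 1.24 and 1.32 (limma, adjusted p = 0.000505 and 0.000393). PCYT2, the next enzyme of the same branch, fell by 1.07 in sh2 (adjusted p = 0.00532). Its sh1 difference was -0.52 (adjusted p = 0.127). CHKA, a choline kinase, rose in sh1 from 11.95 to 12.21 in the control to 13.02 to 13.29, by 1.04 (adjusted p = 0.000164). It differed by 0.03 in sh2 (adjusted p = 0.919), a gap of -1.01 between sh2 and sh1 (adjusted p = 0.000329). CHPT1, a cholinephosphotransferase, rose by 0.57 in sh1 (adjusted p = 0.0232), though not relative to its neighbours (0.20, adjusted p = 0.401) or without control array 1 or 2 or sh1 array 1 (0.47 to 0.52, adjusted p = 0.0821 to 0.0915). In sh2 it differed by 0.45 (adjusted p = 0.0740), which passed without control array 3 (0.56, adjusted p = 0.0475) and with an intensity trend in the prior (adjusted p = 0.0289). PCYT1A had 2 rows with like differences on different sides of the threshold: the one with the higher mean differed by -0.38 in sh2 (adjusted p = 0.0684) and the other by -0.46 (adjusted p = 0.0261).

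**Figure D4:**
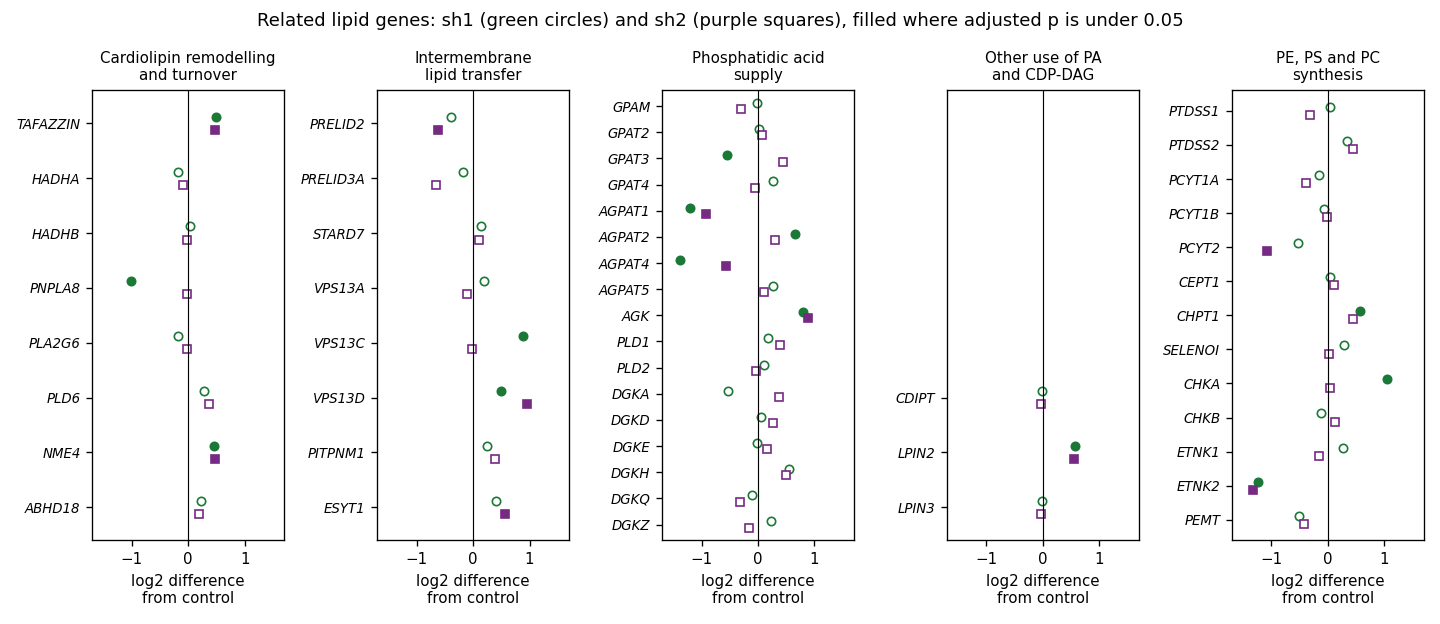
Log2 difference from the control of the 49 measured related lipid genes in 5 lists (PA, phosphatidic acid; CDP-DAG, CDP-diacylglycerol; PE, PS and PC, phosphatidylethanolamine, phosphatidylserine and phosphatidylcholine), for sh1 (green circles) and sh2 (purple squares), filled where the adjusted p is under 0.05. AGK and VPS13D are filled on the right and AGPAT1, AGPAT4 and ETNK2 on the left in both lines, while PNPLA8 and CHKA are filled in sh1 alone.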

How the data were processed

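Total RNA (100 ng) was labelled with biotin for 1-colour whole-transcript arrays, per the labels' protocols. The authors summarised and normalized the deposited log2 signals with Transcriptome Analysis Console, per the submitters' processing notes; version, settings and scan batches were not stated there. The log2 scale was read from the range of the values (2.03 to 18.57). They were used without further scaling. Symbols came from the platform annotation, and all 17709 rows with 1 symbol matched RefSeq by Entrez ID. Groups were compared with limma 3.58.1 (R 4.3.3), as 1 linear model over 9 arrays with Benjamini-Hochberg adjustment over all 21448 rows. Calls required an adjusted p under 0.05. The number of arrays limits the precision. The pipeline was tested on simulated data.

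The members and lists were chosen with earlier results of these data known. Named genes are the 9 members, STOML2, up to 4 called genes per list with the largest difference, and the 2 genes nearest in pattern to each called member; AGK, AGPAT2, CDIPT and single cell type markers were named after their values were seen. A gene with several rows was read from the row with the highest mean. Alternatives were median centring, quantile normalization, a filter on dim rows, the prior, the samples fitted, the replicate block, thresholds, left-out arrays and neighbour correction. Neighbour correction took off, on each array, the median deviation of the 40 nearest expressed genes, those above the median row mean.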

Additional observations from a re-analysis of the deposited data

Results flagged for a closer look

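By the limma test of sh2 minus sh1 itself, the lines differed from each other in STOML2 and in 7 of the cardiolipin and related lipid genes named above. Most related genes were named because a comparison called them, so that count is raised by the choice. Over the full lists, 1 of 9 cardiolipin genes (11.1%) and 6 of 49 related genes (12.2%) were called, beside 11.3% of all rows. The cardiolipin gene was CDS1, lower in sh2 (-1.33 on the log2 scale). STOML2 was lower in sh2 as well (-0.59, adjusted p = 0.0394). Leaving out any of the 8 arrays besides sh2 array 2 ended that call (-0.66 to -0.40, adjusted p = 0.0548 to 0.113). Among related lipid genes, PNPLA8 (0.99), GPAT3 (0.99), AGPAT4 (0.83) and DGKA (0.90) were higher in sh2 than in sh1. VPS13C (-0.91) and CHKA (-1.01) were lower in sh2. VPS13C relative to its neighbours was at -0.51 (adjusted p = 0.0841). Of the cell type markers named, KRT19 (1.12), VIM (0.72) and CD68 (0.89) were higher in sh2 than in sh1, and EPCAM (-4.20), CDH1 (-2.55) and CDH2 (-0.97) were lower. Relative to its neighbours VIM was at -0.45 (adjusted p = 0.0430), the opposite direction. DGKA did not pass without sh1 array 1 or sh2 array 1 (0.84 and 0.75).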

How the results depend on the processing

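Same-numbered arrays were not paired, since the labels do not state that the numbers pair samples. Their deviations correlated at -0.0358 to 0.180, with 2 of 9 pairs over 0.1. Both of these were among the arrays numbered 1, whose pairs were at 0.0856, 0.18 and 0.122. With the replicate number as a block, 1, 3 and 1 of the 9 cardiolipin genes were called in sh1, sh2 and between the lines, as without it, and 3996, 3432 and 2364 rows; among the lipid genes named the block ended only the sh2 call of TAFAZZIN. Cardiolipin genes called in sh1 went from 1 to 2 with quantile normalization, 3 with an intensity trend and 2 with neighbour correction (18.8%, 22% and 20.3% of all rows), and in sh2 from 3 to 1 at 2-fold. The sh2 count was 2 with neighbour correction, beside 17% of all rows. It was also 2 without control array 1, 2 or 3 or sh2 array 2 or 3, beside 11.4% to 13% of all rows. Of the 49 related genes, 8 were called in sh1 and 5 in sh2 at adjusted p under 0.01. At 2-fold, 5, 2 and 1 were called (between the lines last). With neighbour correction 7 were called in sh2, which is 14.3% beside 17% of all rows. Leaving out 1 array gave 9 to 15 in sh1 (18.4% to 30.6%, beside 14.2% to 18.9% of all rows). In sh2 it gave 6 to 12 (12.2% to 24.5%, beside 11.4% to 16.7%). The calls over all 21448 rows fell as well, to 2425, 1921 and 1331 at adjusted p under 0.01. At 2-fold they were 1200, 966 and 755. STOML2 between the lines did not pass with only the groups compared (-0.59, adjusted p = 0.0852) and ranged from -0.72 to -0.40 with 1 array left out.

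Neighbour correction turned the sign of PRELID1 (0.0163 in sh1, 0.0856 in sh2, 0.0693 between the lines), of PRELID2 (0.0083) and NME4 (-0.0041) in sh1, of PGS1 (0.39) and CRLS1 (-0.0278) in sh2, and of TAMM41 between the lines (0.0069), and of VIM in sh1 (0.3624) and between the lines (-0.4541). Leaving out 1 array turned only differences that had not passed: in sh1 PGS1 (-0.055 to 0.14), CRLS1 (-0.12 to 0.0083), TRIAP1 (-0.21 to 0.0733) and CDIPT (-0.0917 to 0.0633); in sh2 TAMM41 (-0.34 to 0.29), PGS1 (-0.18 to 0.02), PNPLA8 (-0.10 to 0.0667), VPS13C (-0.16 to 0.15), CDIPT (-0.1367 to 0.0633), VIM (-0.1117 to 0.0033) and CHKA (-0.0483 to 0.0817); and between the lines TAMM41 (-0.28 to 0.35) and TRIAP1 (-0.27 to 0.015). The cause was not tested. Signals near the background bear on DGKA and PTPRC.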
